A study of Homo sapiens with 24 samples.

Results

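Integrin subunits that bind cells to collagen, laminin and fibronectin were followed in 24 one-colour arrays of the human liver cell line HepaRG. The family was listed as 10 genes, ITGA1, ITGA2, ITGA3, ITGA5, ITGA6, ITGA8, ITGA11, ITGAV, ITGB1 and ITGB4, and a probe was taken as theirs where the RefSeq transcript that the scanner file gives for it belongs to the gene. This rule found 11 of the 50683 probes on the array, which stand for 10 of its 41258 genes and unnamed transcripts, with 2 probes for ITGA6 and 1 for each of the others. All 10 were among the 24643 genes bright enough to be tested, although ITGA2 was so only through cells that received FZD8_CRD and Wnt3a together. The study asked how Wnt3a alters liver progenitor cells, how much of the response passes through β-catenin, and how much of it is sensitive to FZD8_CRD, a soluble piece of the receptor Frizzled 8 that binds Wnt proteins. HepaRG is an established line from a liver tumour whose growing cells can give rise to hepatocyte-like and bile duct-like cells. There were 8 conditions of 3 arrays each, from cultures that the methods describe as independent triplicates. Untransfected cells were left untreated (NT), or were given recombinant mouse Wnt3a at 200 ng/ml (NT-WNT3A), recombinant mouse FZD8_CRD at 300 ng/ml (FZ8CRD) or both (FZ8CRD-WNT3A) for 72 hours in medium without serum that held BSA. Other cells were electroporated in suspension with 80 pmol of a control siRNA (siCTRL) or of an siRNA against CTNNB1, the β-catenin gene (siCTNNB1), and cultured without Wnt3a or with it at the same dose (siCTRL-WNT3A and siCTNNB1-WNT3A). According to the series description treatment ran from the first to the third day after transfection, no condition combined an siRNA with FZD8_CRD, and a single cell line was used throughout.

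Integrins are surface receptors made of an alpha and a beta chain, which hold cells to the matrix and pass signals in both directions across the membrane. ITGB1 pairs with the collagen-binding chains ITGA1, ITGA2 and ITGA11, with the laminin-binding chains ITGA3 and ITGA6, and with ITGA5, ITGA8 and ITGAV, which recognise the RGD sequence of fibronectin and related proteins, while ITGB4 pairs with ITGA6 and anchors epithelial cells to laminin in hemidesmosomes. In the liver such receptors are known from hepatocytes, bile duct cells and stellate cells, where they take part in attachment, in matrix assembly and, through the ITGAV receptors, in the release of active TGF-beta.

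Each array carried 62976 spots, and between 58.3% and 66.5% of its probes were marked by the scanner software as well above background. Values are the log2 of a probe's intensity divided by the 75th percentile of its array, which lay between 643 and 934 intensity units, so that 0 is the brightness of that percentile and a step of 1 is a factor of 2. Where a signal was too weak to be detected it was given a floor value of −6.13. Probes differ in how brightly they label, so no gene's level is set against another's, the brightest probe of a marker list is named for its signal only, and the number of arrays limits the precision of every value. A difference was called where limma, fitted to all 24 arrays and all 24643 genes, gave a Benjamini-Hochberg adjusted p under 0.05. Arrays of a condition correlated at 0.984 to 0.996 across genes, which are not independent replicates. The 8 arrays with the same replicate number lie on 1 slide, and after the condition means were removed they correlated across genes at 0.384 on average, against −0.191 for arrays with other numbers. Differences within each slide are therefore printed beside the results, and the fit with the slide as a block is given where it alters a call. FZ8CRD replicate 3 stood apart most, with a median absolute deviation of 0.250 from the mean of the other arrays of its condition, followed by NT-WNT3A replicates 3 (0.243) and 2 (0.238).

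The siRNA target was checked first. CTNNB1 averaged 3.37 ± 0.17 (SD, n = 3) in untreated cells, 3.41 ± 0.09 after control siRNA and 3.57 ± 0.47 with FZD8_CRD. With Wnt3a the corresponding means were 3.39 ± 0.08, 3.56 ± 0.15 and 3.80 ± 0.23. After β-catenin siRNA it averaged 0.38 ± 0.13 without Wnt3a and 0.54 ± 0.22 with it, far below the other 6 conditions, as the labels say.

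Cell type markers were read over the same arrays. All 8 hepatocyte markers (ALB, APOA1, APOA2, TTR, SERPINA1, TF, FGB and HNF4A) were well above background on every array, with the brightest probe that of ALB. Their summed signal, in units of the 75th percentile, was 1487, 1105 and 775 in the untreated replicates and 906, 394 and 910 with Wnt3a. It was 406, 373 and 388 after control siRNA and 267, 191 and 260 when Wnt3a was added. After β-catenin siRNA it was 624, 473 and 597, and with Wnt3a 283, 389 and 495. The transfected arrays, like those with FZD8_CRD, lay below every untreated array. FZD8_CRD gave 365, 245 and 369 alone and 396, 388 and 382 with Wnt3a. All 8 were lower after control siRNA than in untreated cells (median −1.96) and all 8 lower with FZD8_CRD (median −2.24), against 4 of 8 in each of these comparisons made with Wnt3a. Of the 8, limma called 0 with Wnt3a in untransfected cells, where 2 had an unadjusted p under 0.05 and the median was −0.90, and 2 of 8, APOA1 and TTR, were higher when it was added to FZD8_CRD. Fewer cells of a type and less RNA per cell cannot be told apart in such samples.

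The 6 mesenchymal or stellate markers, of which DCN had the brightest probe, summed to 44.7, 61.5 and 50.6 in untreated cells and 85.5, 80.1 and 84.5 with Wnt3a, where COL1A1 (1.86), DCN (0.71) and ACTA2 (0.31) were higher. The sums were 37.6, 43.5 and 30.6 after control siRNA and 53.1, 52.1 and 48.2 with Wnt3a, where COL1A1 was higher (2.19). β-catenin siRNA gave 21.4, 19.6 and 17.6 alone and 22.3, 22.0 and 21.3 with Wnt3a. These are the lowest sums of the series, and DCN (−1.50), VIM (−0.86) and the dim PDGFRB were lower than after control siRNA. FZD8_CRD gave 30.6, 28.8 and 25.2 alone and 35.1, 35.1 and 34.8 with Wnt3a, with VIM higher (1.25) and DCN lower (−1.49) than in untreated cells. Such sums, like those of the other lists, weigh the brightest probes most, here DCN and ACTA2. With FZD8_CRD plus Wnt3a the means of COL1A1 (2.89), ACTA2 (3.75) and VIM (−0.04) were the highest of the 8 conditions. DCN was 3.72 there, against 6.07 with Wnt3a alone, LRAT had its lowest mean, and PDGFRB was near the floor. Among biliary or progenitor markers, KRT19 had the brightest probe, EPCAM was well above background on 1 array and PROM1 on 0, and the 5 summed to 220 to 384 over the arrays. KRT19 was higher and SOX9 lower with FZD8_CRD, at 0.36 and −0.53. The 4 endothelial markers summed to 0.763 to 4.20, with the brightest probe for KDR, which was lower with FZD8_CRD (−1.51). The 5 leukocyte markers summed to 2.81 to 6.77, with the brightest probes for CD68 and CD14. The part of these shifts in the integrin values was not tested.

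In untransfected cells, 5 of the 10 integrin subunits were called with Wnt3a, beside 5.6% of all genes tested. After control siRNA the count for Wnt3a was 2 of 10 beside 2.11%, and in cells with FZD8_CRD it was 4 beside 8.29%. After β-catenin siRNA limma called 0 of 10 for Wnt3a beside 0.0406% of all genes, of which 2574 had an unadjusted p under 0.05, and with the slide as a block it also called 0 members, beside 0.187%. Control siRNA against no transfection gave 5 of 10 beside 22.3% without Wnt3a and 3 beside 9.04% with it. β-catenin siRNA against control siRNA gave 2 of 10 beside 10.6% without Wnt3a and 3 beside 10.6% with it. FZD8_CRD gave 7 of 10 against untreated cells, beside 41.9% of all genes, and 7 beside 37.2% among cells with Wnt3a. The Wnt3a response itself was called different after β-catenin siRNA than after control siRNA for 0 of 10 by limma, beside 0.0162%, where 823 genes had an unadjusted p under 0.05 and the block fit also called 0 members, beside 0.0406%. With FZD8_CRD against none the difference in response was called for 0 of 10 by limma, beside 0.073%, where 3129 genes had an unadjusted p under 0.05 and the block fit called 1 member beside 0.605%, ITGA8, which was well above background on 0 of the 6 FZD8_CRD arrays. The 12 comparisons draw on 8 conditions and share samples, so their counts are not independent. With so few members, 2 or 3 of 10 beside 10.6% lies close to the background.

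Scaling to 7 spike-in probes in place of the 75th percentile moved the median of all genes by −0.39, 0.16, −0.13 and −0.09 in the Wnt3a comparisons of untransfected, control siRNA, β-catenin siRNA and FZD8_CRD cells. The shift was −0.28 and 0.27 for control siRNA against no transfection, 0.09 and −0.21 for β-catenin siRNA, −0.39 and −0.09 for FZD8_CRD (each without and with Wnt3a), and −0.29 and 0.30 for the differences in response. Under that scaling the changes with Wnt3a in untransfected cells were 0.84 for ITGB4, 0.27 for ITGA5, 0.07 for ITGA3, −1.06 for ITGA6 and −1.83 for ITGA8. Relative to the all-gene median under that scaling, they were 1.22 for ITGB4, 0.65 for ITGA5 and −1.46 for ITGA8, which are the changes of the fit less the median of all genes. In that comparison the calls of ITGB4 and ITGA5 were lost (adjusted p 0.143 and 0.479), as were those of ITGA3 and ITGA6, and ITGA8 stayed called. Over all comparisons 11 of the 38 calls stayed, which are ITGB4 with β-catenin siRNA in both comparisons, ITGA8 with Wnt3a in untransfected cells, with control siRNA without Wnt3a and with FZD8_CRD in both comparisons, ITGA1 with control siRNA and with FZD8_CRD, both without Wnt3a, and ITGA5, ITGA6 and ITGAV with FZD8_CRD among cells with Wnt3a. With FZD8_CRD the counts under that scaling were 2 without Wnt3a and 4 with it, beside 29.7% and 9.54% of all genes, and all 5 rises without Wnt3a lost their call. The changes without Wnt3a were then 0.30 for ITGA3, 0.28 for ITGA5, 0.10 for ITGA6 and 0.29 for ITGB1. Among called changes only that of ITGAV with FZD8_CRD turned sign under this scaling before it was set against the median, to 0.00, and relative to the median it was 0.47.

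**Figure D1:**
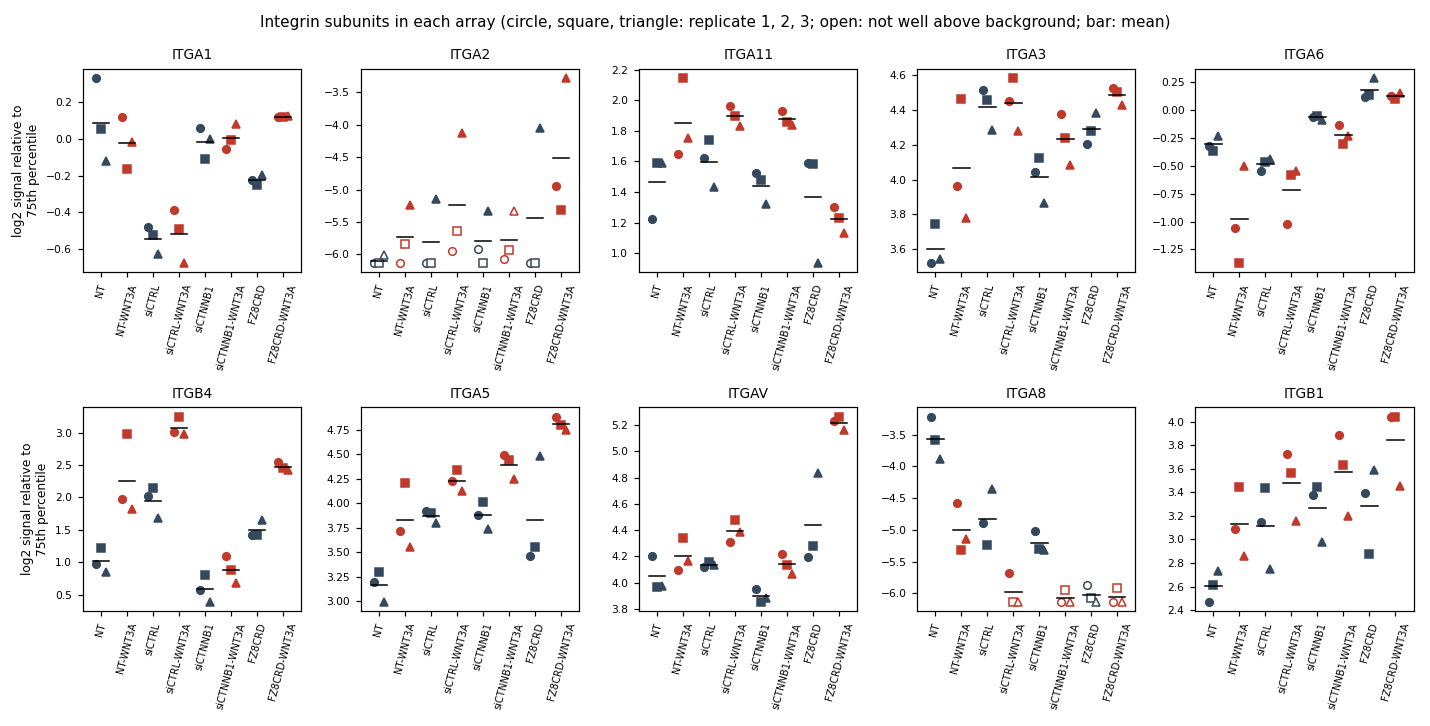
Scaled log2 values of the 10 integrin subunits, with 3 arrays a condition as points (replicates by shape, Wnt3a in red, open where not well above background) and the mean as a bar. ITGB4 spans 2.48 between its highest and lowest condition means, and ITGA8 spans 2.51 down to the floor.

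Among the collagen-binding chains, ITGA1 forms with ITGB1 a receptor for collagen IV and collagen I. Its log2 values were 0.33, 0.05 and −0.12 in untreated replicates 1, 2 and 3 and 0.12, −0.16 and −0.02 with Wnt3a. After control siRNA they were −0.48, −0.52 and −0.63, and with Wnt3a −0.39, −0.49 and −0.68. All 6 control siRNA arrays lay below all 6 untransfected arrays without FZD8_CRD. After β-catenin siRNA the values were 0.06, −0.11 and 0.00, and with Wnt3a −0.05, −0.01 and 0.08, again above every control siRNA array. They overlapped the untransfected arrays without FZD8_CRD. FZD8_CRD gave −0.22, −0.25 and −0.20 alone and 0.12, 0.12 and 0.12 with Wnt3a, and these groups did not overlap. ITGA1 was lower after control siRNA than without transfection, with a log2 change of −0.63 (SE 0.10, adjusted p 2.96e-04) and with −0.81, −0.58 and −0.51 within the slides. With Wnt3a present that difference was −0.50 (SE 0.10, adjusted p 0.00657, within the slides −0.50, −0.33 and −0.66). β-catenin siRNA against control siRNA raised ITGA1 by 0.53 (SE 0.10, adjusted p 0.00182), with 0.54, 0.42 and 0.62 within the slides, and by 0.52 (SE 0.10, adjusted p 0.00153, within the slides 0.33, 0.48 and 0.75) with Wnt3a. Without Wnt3a, FZD8_CRD lowered it, with a change of −0.31 (SE 0.10, adjusted p 0.0172, within the slides −0.55, −0.30 and −0.08). Among cells with Wnt3a, FZD8_CRD gave 0.14 (adjusted p 0.295, within the slides 0.00, 0.28 and 0.14). Wnt3a added to FZD8_CRD raised ITGA1 by 0.34 (SE 0.10, adjusted p 0.0388, within the slides 0.34, 0.37 and 0.32). Wnt3a in untransfected cells gave −0.11 (adjusted p 0.632). The FZD8_CRD call was lost without untreated replicate 1 or FZD8_CRD replicate 2 (change −0.41 to −0.19, highest adjusted p 0.139), and the call for Wnt3a with FZD8_CRD was lost without FZD8_CRD replicate 1 or 2 or FZD8_CRD plus Wnt3a replicate 1, 2 or 3 (change 0.33 to 0.36, highest adjusted p 0.168). Without Wnt3a replicate 1 the effect of control siRNA among cells with Wnt3a had an adjusted p of 0.0607.

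ITGA11, the alpha chain of a fibrillar collagen receptor typical of fibroblasts, kept within 0.94 to 2.15 over the 24 arrays. Its values with FZD8_CRD plus Wnt3a were 1.30, 1.23 and 1.13, against 1.65, 2.15 and 1.76 with Wnt3a alone. Each of the first set lay below each of the second, and the difference was −0.63 (SE 0.15, adjusted p 0.00249), with −0.35, −0.91 and −0.62 within the slides, and it passed with each of the 6 arrays left out in turn. Wnt3a gave 0.38 (adjusted p 0.136) in untransfected cells, 0.30 (adjusted p 0.392) after control siRNA and 0.43 (adjusted p 0.305) after β-catenin siRNA, higher on all 3 slides in each, and −0.15 (adjusted p 0.701) with FZD8_CRD. ITGA2, the alpha chain of the main collagen I receptor of platelets and many epithelia, was close to the limit of detection. It was well above background on all 3 arrays with FZD8_CRD plus Wnt3a (−4.95, −5.31 and −3.28), on 0 of 3 in untreated cells (−6.13, −6.13 and −6.02) and after β-catenin siRNA plus Wnt3a, and on 1 of 3 in each of the other 5 conditions, where replicate 3 was the array concerned. No comparison called it in the fit without a slide block, and the block called it for FZD8_CRD among cells with Wnt3a. As the FZD8_CRD plus Wnt3a arrays are also those through which it entered the test, no size is printed for its differences. The figures of the changes draw its fitted values with those of the other members, and they enter the medians over the members, so no size is to be read from them.

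Of the laminin-binding chains, ITGA3 forms with ITGB1 a receptor for the laminins of epithelial basement membranes. Its values were 3.52, 3.75 and 3.55 in untreated cells and 3.96, 4.47 and 3.78 with Wnt3a. Control siRNA gave 4.51, 4.46 and 4.29 alone and 4.45, 4.59 and 4.28 with Wnt3a. Untreated cells held the 3 lowest values of the series. β-catenin siRNA gave 4.05, 4.13 and 3.87 and, with Wnt3a, 4.38, 4.24 and 4.08. FZD8_CRD gave 4.21, 4.28 and 4.38 alone and 4.53, 4.50 and 4.43 with Wnt3a, both above all untreated values. Wnt3a raised ITGA3 in untransfected cells by 0.46 (SE 0.13, adjusted p 0.0422), with 0.44, 0.72 and 0.23 within the slides, and gave 0.02 (adjusted p 0.995) after control siRNA. Control siRNA raised it by 0.82 (SE 0.13, adjusted p 2.97e-04, within the slides 0.99, 0.71 and 0.74) and FZD8_CRD by 0.69 (SE 0.13, adjusted p 2.85e-04, within the slides 0.69, 0.54 and 0.84), both calls passing with each array left out in turn. Among cells with Wnt3a, FZD8_CRD raised it by 0.42 (SE 0.13, adjusted p 0.0160, within the slides 0.57, 0.03 and 0.65), with overlapping groups, and control siRNA gave 0.37 (adjusted p 0.0804), or 0.0237 with the slide as a block, with 0.49, 0.12 and 0.51 within the slides. β-catenin siRNA against control siRNA gave −0.41 (adjusted p 0.0520), with −0.47, −0.33 and −0.42 within the slides and an adjusted p of 0.0129 with the slide as a block. The Wnt3a call was lost without untreated replicate 1, 2 or 3 or Wnt3a replicate 1 or 2 (change 0.26 to 0.61, highest adjusted p 0.327), and the FZD8_CRD call among cells with Wnt3a was lost without Wnt3a replicate 1 or 3 or FZD8_CRD plus Wnt3a replicate 1 (change 0.27 to 0.62, highest adjusted p 0.111).

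ITGA6 pairs with either ITGB1 or ITGB4 in laminin receptors, and it is also used to mark epithelial progenitor cells. Its brighter probe, which stands for the gene in the counts, gave −0.32, −0.37 and −0.23 in untreated cells and −1.06, −1.37 and −0.51 with Wnt3a. After control siRNA it gave −0.55, −0.47 and −0.44, and with Wnt3a −1.02, −0.58 and −0.54. Wnt3a replicate 3 lay closer to the untreated values than replicates 1 and 2 did, and the groups did not overlap in untransfected cells. After β-catenin siRNA the probe gave −0.06, −0.05 and −0.09, and with Wnt3a −0.13, −0.30 and −0.24. With FZD8_CRD it gave 0.12, 0.14 and 0.29 alone and 0.12, 0.10 and 0.15 with Wnt3a, the 6 highest values of the series. Wnt3a lowered ITGA6 in untransfected cells, the change being −0.67 (SE 0.15, adjusted p 0.0134), with −0.74, −1.01 and −0.27 within the slides, a call lost without untreated replicate 1 or Wnt3a replicate 2 (change −0.91 to −0.48, highest adjusted p 0.119). FZD8_CRD raised it by 0.49 (SE 0.15, adjusted p 0.0126, within the slides 0.44, 0.50 and 0.52) without Wnt3a and by 1.104 (SE 0.15, adjusted p 1.44e-05, within the slides 1.18, 1.47 and 0.66) with it. β-catenin siRNA raised it by 0.49 (SE 0.15, adjusted p 0.0385, within the slides 0.89, 0.28 and 0.31) among cells with Wnt3a, lost without control siRNA plus Wnt3a replicate 1 or β-catenin siRNA plus Wnt3a replicate 1, 2 or 3 (highest adjusted p 0.217), and gave 0.42 (adjusted p 0.0798) without Wnt3a, or 0.0398 with the slide as a block.

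The dimmer ITGA6 probe gave −1.35, −1.15 and −1.26 in untreated cells and −1.35, −1.35 and −1.39 with Wnt3a, and −0.98, −1.002 and −1.06 after control siRNA and −1.45, −1.57 and −1.67 with Wnt3a. In a fit of all probes, Wnt3a in untransfected cells lowered the brighter probe, at −0.67 (adjusted p 0.0145), while the dimmer gave −0.11 (adjusted p 0.630). After control siRNA the reverse held, with −0.23 (adjusted p 0.599) for the brighter and −0.55 (adjusted p 0.00904), a called fall, for the dimmer. FZD8_CRD raised both without Wnt3a, by 0.49 (adjusted p 0.0125) and 0.31 (adjusted p 0.0205), and with Wnt3a the values were 1.104 (adjusted p 1.40e-05) and 0.24 (adjusted p 0.0669). β-catenin siRNA among cells with Wnt3a raised both, by 0.49 and 0.37 (adjusted p 0.0398 and 0.0235). Where neither was called the signs could differ, as for β-catenin siRNA without Wnt3a, with 0.42 for the brighter and −0.20 for the dimmer (adjusted p 0.0813 and 0.269), and for control siRNA against no transfection, with −0.18 and 0.24 (adjusted p 0.452 and 0.103). The size of the Wnt3a effect depended on the probe.

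**Figure D2:**
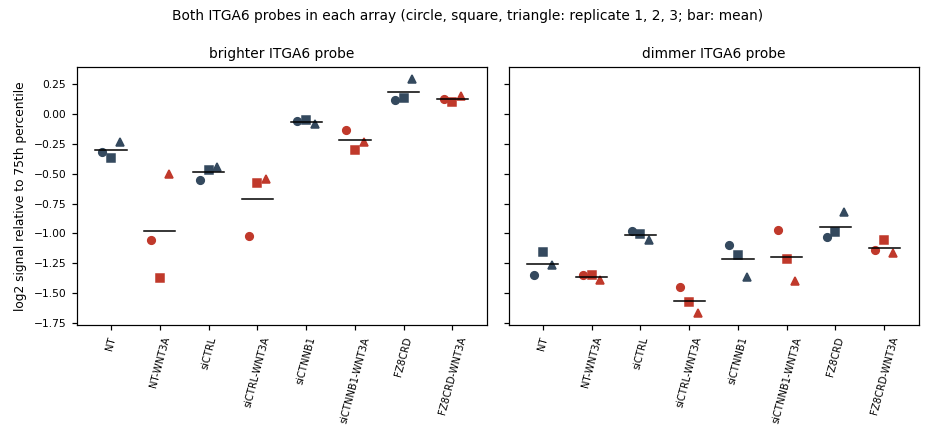
Log2 signal of the brighter and dimmer ITGA6 probes on each of the 24 arrays, by condition. With Wnt3a the brighter probe moved by −0.67 in untransfected cells and the dimmer by −0.11, and after control siRNA the values were −0.23 and −0.55.

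ITGB4, the beta chain of the hemidesmosome integrin, carried the largest called rise with Wnt3a among the 10 members in untransfected and in control siRNA cells. Its values were 0.98, 1.23 and 0.86 in untreated replicates 1, 2 and 3 and 1.98, 2.97 and 1.83 with Wnt3a. Control siRNA gave 2.02, 2.14 and 1.68 alone and 3.01, 3.24 and 2.97 with Wnt3a. Every array with Wnt3a lay above every array without it in both pairs. β-catenin siRNA gave 0.57, 0.81 and 0.39 alone and 1.09, 0.88 and 0.69 with Wnt3a. These 2 groups overlapped each other and lay below all control siRNA arrays. FZD8_CRD gave 1.42, 1.43 and 1.66 alone and 2.55, 2.46 and 2.42 with Wnt3a, with no overlap. Wnt3a raised ITGB4 by 1.23 (SE 0.21, adjusted p 0.00257) in untransfected cells, with 1.00, 1.74 and 0.97 within the slides, by 1.13 (SE 0.21, adjusted p 0.00813) after control siRNA, with 0.98, 1.11 and 1.29, and by 0.98 (SE 0.21, adjusted p 0.00705, within the slides 1.13, 1.03 and 0.76) with FZD8_CRD. After β-catenin siRNA it gave 0.30 (adjusted p 0.702), with 0.52, 0.07 and 0.29 within the slides. The difference between that response and the response after control siRNA was −0.83, with −0.46, −1.03 and −0.99 within the slides and an unadjusted limma p of 0.0104, and it did not pass the adjustment over all genes (adjusted p 1.00, or 0.470 with the slide as a block).

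β-catenin siRNA against control siRNA lowered ITGB4, with a change of −1.36 (SE 0.21, adjusted p 2.47e-04) without Wnt3a and −1.45, −1.33 and −1.29 within the slides. With Wnt3a the change was −2.19 (SE 0.21, adjusted p 1.04e-06), with −1.91, −2.37 and −2.29, which is a 4.55-fold difference. Both passed with each array left out in turn. Control siRNA itself raised ITGB4 over untransfected cells by 0.92 (SE 0.21, adjusted p 0.00309, within the slides 1.04, 0.91 and 0.82), and by 0.82 (SE 0.21, adjusted p 0.0187, within the slides 1.03, 0.27 and 1.14) with Wnt3a. FZD8_CRD against untreated cells gave 0.48 (adjusted p 0.0719), or 0.0276 with the slide as a block, and 0.22 (adjusted p 0.449) among cells with Wnt3a. In the order of condition means, control siRNA plus Wnt3a stood highest, by a narrow margin over the highest Wnt3a array, and the arrays with Wnt3a alone spanned those with FZD8_CRD plus Wnt3a and overlapped those with control siRNA. FZD8_CRD alone lay between control siRNA and untreated cells without overlap, untreated cells overlapped β-catenin siRNA plus Wnt3a, and this overlapped β-catenin siRNA alone, the lowest mean. The rise with Wnt3a after control siRNA was lost without control siRNA plus Wnt3a replicate 2 or control siRNA replicate 3 (change 0.99 to 1.22, highest adjusted p 0.0646), and that with FZD8_CRD without FZD8_CRD replicate 1 or 2 (highest adjusted p 0.0556). The effect of control siRNA among cells with Wnt3a was lost without Wnt3a replicate 1 or 3 or control siRNA plus Wnt3a replicate 2 (change 0.60 to 1.17, highest adjusted p 0.136).

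Of the RGD-binding chains, ITGA5 makes with ITGB1 the main fibronectin receptor, which drives the assembly of fibronectin fibrils. Its values were 3.19, 3.30 and 3.00 in untreated cells and 3.72, 4.20 and 3.55 with Wnt3a. Control siRNA gave 3.92, 3.90 and 3.80 alone and 4.22, 4.34 and 4.13 with Wnt3a. In both pairs the arrays with Wnt3a lay above those without, and all transfected arrays lay above all untreated arrays. β-catenin siRNA gave 3.88, 4.01 and 3.74 alone and 4.49, 4.44 and 4.25 with Wnt3a. FZD8_CRD gave 3.47, 3.55 and 4.48 alone, with replicate 3 well above the others, and 4.88, 4.80 and 4.75 with Wnt3a, the 3 highest values of the series. Wnt3a raised ITGA5 by 0.66 (SE 0.19, adjusted p 0.0465) in untransfected cells, with 0.52, 0.90 and 0.56 within the slides, and by 0.98 (SE 0.19, adjusted p 0.00405) with FZD8_CRD, with 1.42, 1.25 and 0.27. It gave 0.36 (adjusted p 0.435) after control siRNA and 0.51 (adjusted p 0.336) after β-catenin siRNA, higher on all 3 slides in each. Control siRNA raised it by 0.71 (SE 0.19, adjusted p 0.0103, within the slides 0.73, 0.59 and 0.80). FZD8_CRD raised it by 0.67 (SE 0.19, adjusted p 0.00760), with 0.27, 0.25 and 1.48 within the slides, and by 0.99 (SE 0.19, adjusted p 4.12e-04, within the slides 1.17, 0.60 and 1.19) with Wnt3a.

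Without FZD8_CRD replicate 3 the FZD8_CRD change in ITGA5 was 0.34 (adjusted p 0.0533), and that of Wnt3a added to FZD8_CRD was 1.30. The Wnt3a call in untransfected cells was lost without untreated replicate 1, 2 or 3 or Wnt3a replicate 1 or 2 (change 0.47 to 0.79, highest adjusted p 0.336). β-catenin siRNA against control siRNA gave 0.00 (adjusted p 1.00) without Wnt3a and 0.16 (adjusted p 0.755) with it.

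Promoter windows of RefSeq on GRCh38.p14, 250 bases before to 50 after the gene start, were given for 8 of the members as 11 windows. They were searched on both strands for ATCAAAG (TCF/LEF), CATTCC (TEAD) and TGANTCA (AP-1), motifs that do not overlap one another in these windows. Of all 35116 windows of the same length, 2.62% hold the first, 14.0% the second and 7.71% the third. Matches were found in 2 of the 11 windows, that of ITGA5, chr12:54419217-54419516 on the minus strand, and that of ITGB1, chr10:32958181-32958480 on the minus strand. These are the paired chains of the fibronectin receptor, shown for their matches, and both were higher in FZD8_CRD cells. ITGA6 and ITGAV were also higher there, and their windows held no match, nor did the other window of ITGB1. No window was given for ITGA3 or ITGB4. Capitals mark GGAATG, which is CATTCC on the other strand, at −82 in ITGA5 and at −182 in ITGB1, and TGAGTCA at −6 in ITGA5, each counted from the gene start. A match is a description of the letters and no sign that a factor binds there.
ITGA5: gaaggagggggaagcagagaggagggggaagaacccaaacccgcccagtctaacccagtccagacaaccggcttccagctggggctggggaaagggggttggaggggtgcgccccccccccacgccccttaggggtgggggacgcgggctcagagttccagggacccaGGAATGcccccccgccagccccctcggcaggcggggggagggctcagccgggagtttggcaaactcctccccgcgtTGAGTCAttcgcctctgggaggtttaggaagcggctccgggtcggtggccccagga
ITGB1: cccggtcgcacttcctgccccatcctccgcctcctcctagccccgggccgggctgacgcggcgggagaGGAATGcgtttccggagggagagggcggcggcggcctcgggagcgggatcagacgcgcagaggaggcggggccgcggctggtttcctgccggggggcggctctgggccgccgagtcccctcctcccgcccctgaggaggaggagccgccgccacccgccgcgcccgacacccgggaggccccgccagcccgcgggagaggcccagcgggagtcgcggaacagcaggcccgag

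ITGAV pairs with ITGB1 and with several other beta chains in receptors for vitronectin, fibronectin and latent TGF-beta. Its values were 4.20, 3.97 and 3.98 in untreated cells and 4.10, 4.34 and 4.17 with Wnt3a, which overlapped. Control siRNA gave 4.12, 4.16 and 4.14 alone and 4.31, 4.47 and 4.38 with Wnt3a. β-catenin siRNA gave 3.95, 3.86 and 3.89 alone and 4.22, 4.14 and 4.07 with Wnt3a. The arrays with Wnt3a lay above those without in both transfected pairs. FZD8_CRD gave 4.20, 4.28 and 4.83 alone, where replicate 3 was the highest, and 5.23, 5.26 and 5.16 with Wnt3a, the 3 highest values of the series. Wnt3a raised ITGAV in cells with FZD8_CRD by 0.78 (SE 0.11, adjusted p 6.72e-04), with 1.03, 0.99 and 0.32 within the slides, and by 0.98 without FZ8CRD replicate 3. Elsewhere the Wnt3a difference was 0.15 (adjusted p 0.509) in untransfected cells, 0.25 (adjusted p 0.314) after control siRNA and 0.24 (adjusted p 0.467) after β-catenin siRNA. Among cells with Wnt3a, FZD8_CRD raised it by 1.01 (SE 0.11, adjusted p 2.61e-06), with 1.13, 0.92 and 0.99 within the slides, and without Wnt3a by 0.39 (SE 0.11, adjusted p 0.00974), where the groups overlapped and the slides gave 0.00, 0.31 and 0.86. That last call was lost without FZD8_CRD replicate 3 (change 0.19, adjusted p 0.0646), and with spike-in scaling the change was 0.00, with its sign reversed, or 0.47 relative to the median of all genes. The latter is the change of the fit less that median, which a factor per array leaves as it was.

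ITGA8, whose receptor with ITGB1 binds nephronectin and fibronectin and which is known from stellate cells and the developing kidney, was dim. Its values were −3.22, −3.59 and −3.88 in untreated cells and −4.57, −5.31 and −5.14 with Wnt3a. Control siRNA gave −4.89, −5.24 and −4.36 alone and −5.68, −6.13 and −6.13 with Wnt3a, where 1 of 3 arrays was well above background. Untreated cells held the 3 highest values of the series. β-catenin siRNA gave −5.02, −5.30 and −5.31 alone and −6.13, −5.94 and −6.13 with Wnt3a, where 0 of 3 arrays were well above background. FZD8_CRD gave −5.87, −6.07 and −6.13 alone and −6.13, −5.92 and −6.13 with Wnt3a, with 0 of 3 well above background in each. Wnt3a lowered ITGA8 in untransfected cells, with a change of −1.44 (SE 0.23, adjusted p 0.00204) and −1.35, −1.72 and −1.25 within the slides, and also after control siRNA, where 2 of the 3 arrays with Wnt3a were at the floor and the fitted −1.15 (SE 0.23, adjusted p 0.0153) is no exact size. The latter call was lost without control siRNA replicate 1 or 3 or control siRNA plus Wnt3a replicate 2 or 3 (highest adjusted p 0.104). After β-catenin siRNA it was at least 1.56-fold lower with Wnt3a, which was not called (adjusted p 0.211). Control siRNA lowered it too, at −1.27 (SE 0.23, adjusted p 8.19e-04, within the slides −1.67, −1.65 and −0.47) without Wnt3a, and among cells with Wnt3a, where the same 2 arrays at the floor leave the size unmeasured (adjusted p 0.0144), the second a call lost without Wnt3a replicate 1 or control siRNA plus Wnt3a replicate 2 or 3 (highest adjusted p 0.120). FZD8_CRD left it at least 5.51-fold lower than in untreated cells (adjusted p 3.63e-07) and, among cells with Wnt3a, at least 2.02-fold lower (adjusted p 0.00144).

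ITGB1, the common beta chain of all these alpha chains, gave 2.47, 2.61 and 2.73 in untreated cells and 3.09, 3.44 and 2.86 with Wnt3a. Control siRNA gave 3.15, 3.44 and 2.75 alone and 3.72, 3.56 and 3.16 with Wnt3a. Untreated cells held the lowest 3 values, and after control siRNA the range of the replicates was wider than the difference in means made by Wnt3a. β-catenin siRNA gave 3.38, 3.44 and 2.98 alone and 3.88, 3.63 and 3.20 with Wnt3a. FZD8_CRD gave 3.39, 2.88 and 3.59 alone and 4.04, 4.04 and 3.45 with Wnt3a. Most arrays of replicate 3 were low within their condition, the exceptions being untreated cells and FZD8_CRD. FZD8_CRD raised ITGB1 by 0.68 (SE 0.23, adjusted p 0.0205), with 0.92, 0.27 and 0.86 within the slides, and by 0.71 (SE 0.23, adjusted p 0.0177) with Wnt3a, with 0.95, 0.60 and 0.60. These calls were lost without untreated replicate 1 or FZD8_CRD replicate 1 or 3 (change 0.53 to 0.89, highest adjusted p 0.0989), and without Wnt3a replicate 1 or 3 or FZD8_CRD plus Wnt3a replicate 1 or 2 (change 0.58 to 0.91, highest adjusted p 0.0808). Wnt3a gave 0.53 (adjusted p 0.183) in untransfected cells and 0.56 (adjusted p 0.151) with FZD8_CRD, and control siRNA against no transfection gave 0.51 (adjusted p 0.121).

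The question of the first comparisons is what Wnt3a does on its own. In untransfected cells ITGA3, ITGA5 and ITGB4 rose and ITGA6 and ITGA8 fell, and the median change of the 10 members was 0.37, against 0.01 for all genes. Counts of the lists stand beside 5.6% of all genes called. Of the collagen ligands, 8 of 19 tested were higher and 0 lower, with COL1A1 (1.86), COL5A1 (1.15) and COL1A2 (1.14) as examples and a list median of 0.48. Of 16 RGD and fibronectin-type ligands, 6 were called higher and 1 lower. Among the former were FBN1 (1.18), a microfibril protein, and FN1, fibronectin itself (0.85). Limma called 0 of 15 laminin and basement membrane genes and 0 of 9 hemidesmosome partners, of which 4 and 3 had an unadjusted p under 0.05. Of 30 adhesion adaptors and kinases 8 were higher, among them the actin crosslinkers FLNA (0.95) and ACTN1 (0.75) and the integrin activator FERMT2 (0.55). MRC2, an endocytic collagen receptor, was higher by 1.77 among the 15 other matrix receptors, with SDC3 and CD44 also higher. The count of members was 2 beside 1.61% without untreated replicate 1 and 2 beside 0.730% without Wnt3a replicate 2. It was 3 without untreated replicate 2, untreated replicate 3 or Wnt3a replicate 1 (1.66%, 11.4% and 4.64% of all genes). With slides 1, 2 and 3 left out in turn it was 0, 0 and 7 beside 0.110%, 0.0243% and 25.7%. The mesenchymal marker sums above moved with this comparison, and their part in it was not tested.

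After control siRNA Wnt3a raised ITGB4 and lowered ITGA8, with a median over the members of 0.28 against 0.02 for all genes. Collagen ligands were again higher for 7 of 19, with COL1A1 at 2.19 and COL1A2 at 1.80. This and the next counts of lists stand beside 2.11% of all genes called. Of the RGD and fibronectin-type ligands 3 of 16 rose, FN1 (1.03), FBN1 (0.77) and CCN1 (0.62), and MRC2 (1.34) and CD44 (0.48) rose among other matrix receptors. Limma called 0 of the 30 adaptors, 0 of the 15 laminin genes and 0 of the 9 hemidesmosome partners, where 8, 1 and 5 had an unadjusted p under 0.05. The count of members by limma was 0 without control siRNA plus Wnt3a replicate 2 or control siRNA replicate 3 (0.345% and 0.231% of all genes), and 1 without control siRNA replicate 1 or control siRNA plus Wnt3a replicate 3 (0.377% and 0.580%). Without slide 1, 2 or 3 it was 0, 1 and 1 beside 0.0162%, 0.0487% and 2.33%. After β-catenin siRNA the members' median was 0.23 against 0.03, with 8 of 10 positive, and of all list genes MRC2 alone was called, at 1.30. The difference between the Wnt3a responses after β-catenin and control siRNA, which is the test of whether they differ, had a median of 0.03 over the members and called 0 genes of any list by limma.

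**Figure D3:**
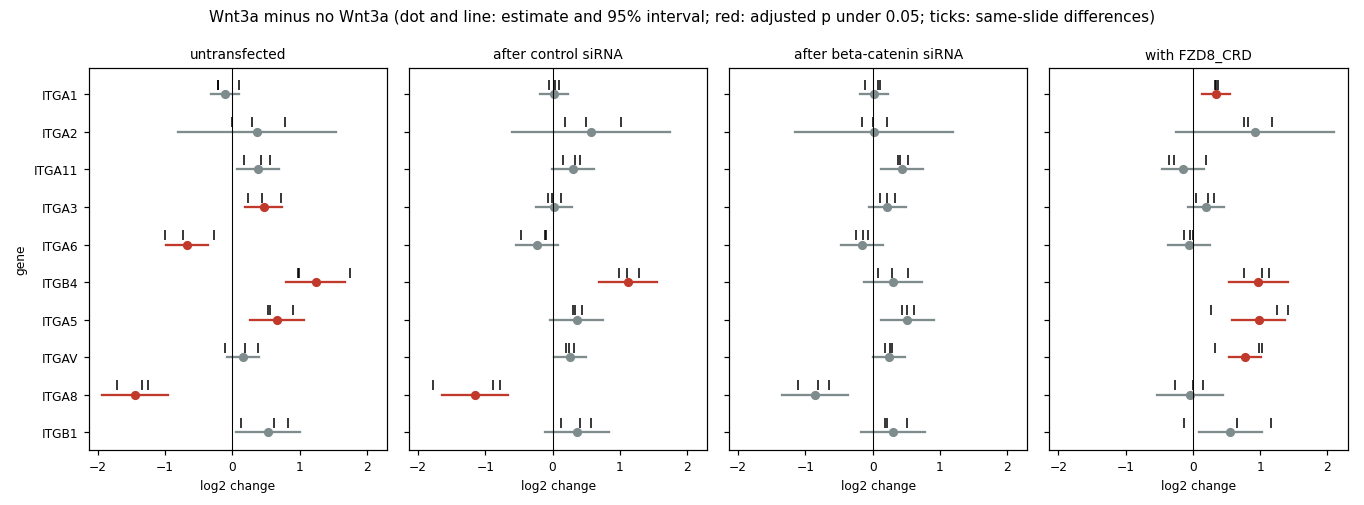
Log2 change with Wnt3a for each member in 4 settings, as estimate and 95% interval (red where adjusted p is under 0.05), with the 3 differences within a slide as ticks. ITGB4 lies at 1.23, 1.13, 0.30 and 0.98 in untransfected, control siRNA, β-catenin siRNA and FZD8_CRD cells.

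With FZD8_CRD present, Wnt3a raised ITGA1, ITGA5, ITGAV and ITGB4. No median over the members is given here, as ITGA2 entered the test through the FZD8_CRD plus Wnt3a arrays and ITGA8 was not well above background in either group. RGD and fibronectin-type ligands were higher for 8 of 16, among them the matricellular proteins TNC (2.94), POSTN (1.99) and TGFBI (1.93), and 1 was lower. This and the next counts of lists stand beside 8.29% of all genes called. Collagen ligands split into 6 higher, with COL1A1 at 2.65, and 2 lower, among them COL4A6 of basement membranes (−1.40). Of 9 hemidesmosome partners 3 rose, the basal keratins KRT14 (3.22) and KRT5 (1.17) and the laminin chain LAMB3 (0.88). Among 15 laminin and basement membrane genes 3 were higher and LAMA4 was lower (−0.97). Of 14 other integrin subunits 1 was higher, ITGB3 (1.85), which pairs with ITGAV, and 2 were lower. The 15 other matrix receptors gave 5 higher, among them ADGRG1 (2.04), a collagen III receptor, and 2 lower. Of 30 adaptors 5 were higher and 1 lower, with TNS1 (1.09) and FLNA (0.91) as examples. The count of members was 2 without FZD8_CRD replicate 1 or 2 (1.41% and 1.49% of all genes). When slides 1, 2 and 3 were left out in turn it was 0, 0 and 6 beside 0.0122%, 0% and 21.6%. Of the cell type markers, 3 of 6 mesenchymal, 2 of 8 hepatocyte and 1 of 4 leukocyte genes were higher and 1 of 4 endothelial genes lower in this comparison, and their part in it was not tested. Whether FZD8_CRD altered the Wnt3a response was tested as a difference of differences. It gave 0.63 (adjusted p 0.114) for ITGAV. For ITGA8, not well above background in either FZD8_CRD group, a response with FZD8_CRD was not measured, so calls of this difference restate its fall in untransfected cells. Without FZ8CRD replicate 3 it called 4 beside 7.75%, namely ITGA5, ITGA8, ITGA11 and ITGAV, without untreated replicate 3 it called 3 beside 2.40%, namely ITGA1, ITGA8 and ITGAV, and without Wnt3a replicate 3 it called 1 beside 0.771%, namely ITGA6. Without slides 1, 2 and 3 in turn its count was 0, 0 and 6 beside 0%, 0% and 12.1%.

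Control siRNA was compared with no transfection to see what electroporation and an untargeted siRNA do to the family. Without Wnt3a, ITGA3, ITGA5 and ITGB4 rose and ITGA1 and ITGA8 fell, with a median over the members of 0.21 against −0.03 for all genes, and all 5 calls passed with each array left out. With slides 1, 2 and 3 left out, however, the count was 0, 3 and 6 beside 0.954%, 8.93% and 27.9%. List counts in these comparisons stand beside 22.3% of all genes called without Wnt3a and 9.04% with it, and several lie near those shares. Of 30 adaptors and kinases 13 were higher and 5 lower, with SRC (0.75) and TNS4 (0.89) among the former and FYN (−1.79) and TNS1 (−1.37) among the latter. Collagen ligands were lower for 7 of 19, with COL3A1 at −2.11, and higher for 2, among them COL4A1 (0.80). Laminin chains LAMC1 (0.48), LAMA1 (0.44) and LAMA5 (0.44) were higher, and the 16 RGD-type ligands split into 3 higher and 3 lower, with VTN at −1.61. COL17A1 was lower among hemidesmosome partners (−0.67). Of the 15 other receptors 3 were higher, among them SDC3 (1.00) and MRC2 (1.04), and 1 was lower. With Wnt3a, ITGB4 rose and ITGA1 and ITGA8 fell, and the median was 0.31 against −0.02. In that comparison 1 adaptor was higher and 2 lower, and the collagens gave 1 higher and 4 lower. The RGD-type ligands gave 0 higher and 1 lower, SPP1 (−0.89), the laminin genes 1 each way, the hemidesmosome partners 1 lower (LAMA3, −0.39) and the other receptors 1 each way. The count of members there was 0 beside 1.0997% without Wnt3a replicate 1, 1 beside 1.41% without control siRNA plus Wnt3a replicate 2 and 5 beside 16.4% without Wnt3a replicate 2. With slides 1, 2 and 3 each left out it was 0, 1 and 0 beside 0.00406%, 3.58% and 5.08%, and with the slide as a block it was 4 beside 15.2% of all genes, ITGA3 being added. All 8 hepatocyte markers fell without Wnt3a and 4 of 8 with it. Of 6 mesenchymal markers 1 was higher and 1 lower without Wnt3a, and 1 was lower with it. The part of these markers in the integrin values was not tested.

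β-catenin siRNA was then compared with control siRNA in transfected cells. The methods name different products for these siRNAs, and an effect of the product was not tested apart from one of β-catenin. Without Wnt3a ITGA1 rose and ITGB4 fell, and the count was 4 with the slide as a block, beside 16.6% of all genes, where ITGA3 and ITGA6 joined them. With Wnt3a ITGA1 and ITGA6 rose and ITGB4 fell, and the medians over the members were −0.08 and −0.05, against −0.03 and −0.01 for all genes. The rises of ITGA1 brought it to values that overlapped those of untransfected cells without FZD8_CRD. The counts of the lists here stand beside 10.6% of all genes called in each comparison, and several lie near that share. Of 9 hemidesmosome partners 2 fell without Wnt3a, among them KRT14 (−1.84), and 1 with it, KRT5 (−0.99). Collagen ligands were lower for 1 of 19 without Wnt3a, COL16A1 (−0.87), and for 6 of 19 with it, with COL1A1 at −1.47 and COL3A1 at −1.20. The 16 RGD-type ligands gave 2 higher and 4 lower without Wnt3a and 1 higher and 5 lower with it, where FN1 was at −1.03 and SPP1 at 0.82. Of 30 adaptors 4 and then 5 were lower and 0 higher, with ACTN1 at −0.61 and TNS4 at −1.09. Of 15 laminin and basement membrane genes 1 was lower without Wnt3a, and with it LAMA4 was lower (−0.62) and NID1 higher (0.48). MRC2 was lower in both, at −1.35 and −1.39, and the other receptors called were SDC4, CD44 and DAG1. The mesenchymal markers DCN and VIM fell in both of these comparisons, PDGFRB without Wnt3a and COL1A1 with it. CD14 of the leukocyte markers fell in both, the endothelial PECAM1 without Wnt3a, and with Wnt3a SOX9 fell and ALB rose, and the part of these markers was not tested. Leaving out slides 1, 2 and 3 in turn gave counts of 1, 1 and 2 beside 2.04%, 1.92% and 9.65% without Wnt3a and 2, 1 and 3 beside 3.73%, 2.39% and 10.74% with it.

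FZD8_CRD against no FZD8_CRD was compared in untransfected cells, and these arrays share the untreated and Wnt3a controls with the comparisons above. Without Wnt3a, ITGA3, ITGA5, ITGA6, ITGAV and ITGB1 rose and ITGA1 and ITGA8 fell, with a median over the members of 0.48 against −0.09 for all genes. With Wnt3a, ITGA3, ITGA5, ITGA6, ITGAV and ITGB1 rose and ITGA8 and ITGA11 fell. No median is given for that comparison, as ITGA2 entered the test through its FZD8_CRD plus Wnt3a arrays. With the slide as a block each count was 8, beside 53.3% and 48.5% of all genes, ITGB4 joining without Wnt3a and ITGA2 with it, the latter with the group through which it entered the test. The list counts that follow stand beside 41.9% of all genes called without Wnt3a and 37.2% with it, and several lie near those shares. Adaptors and kinases split into 14 higher and 4 lower of 30, and 13 and 5 with Wnt3a, with ACTN1 at 0.92 and FERMT2 at 0.89, and with the kinases FYN (−3.03) and PTK2B (−1.76) lower. Collagen ligands were lower for 8 of 19, and 10 with Wnt3a, COL3A1 at −2.81 and −3.13, while COL4A1 rose by 1.02 and 1.28. The 15 laminin and basement membrane genes gave 3 higher and 4 lower, then 3 and 7, with NID2 at 0.69 and LAMB2 at −0.70. RGD-type ligands gave 3 each way, then 6 higher and 4 lower, with THBS1 at 1.60 and FN1 at −0.98. Of 9 hemidesmosome partners 0 were higher and 2 lower without Wnt3a, among the latter COL17A1 (−0.58). With Wnt3a 4 were higher, among them KRT14 (2.92), and 2 lower. Other receptors gave 5 higher and 2 lower of 15, then 6 and 3, with CD47 at 0.57 and SDC4 at −0.70.

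Without FZ8CRD replicate 3 the count in untreated cells was 4 beside 40.6%, made of ITGA1, ITGA3, ITGA6 and ITGA8. Left out in turn, slides 1, 2 and 3 gave counts of 4, 5 and 5 beside 25.2%, 25.7% and 45.6% without Wnt3a and 4, 6 and 7 beside 16.7%, 25.1% and 41.1% with it. All 8 hepatocyte markers fell with FZD8_CRD without Wnt3a and 4 of 8 with it. KRT19 rose and SOX9 and KDR fell in both comparisons, and CD68 fell without Wnt3a. The mesenchymal markers gave 2 higher and 1 lower, then 2 each way, and the part of these shifts in the integrin values was not tested.

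**Figure D4:**
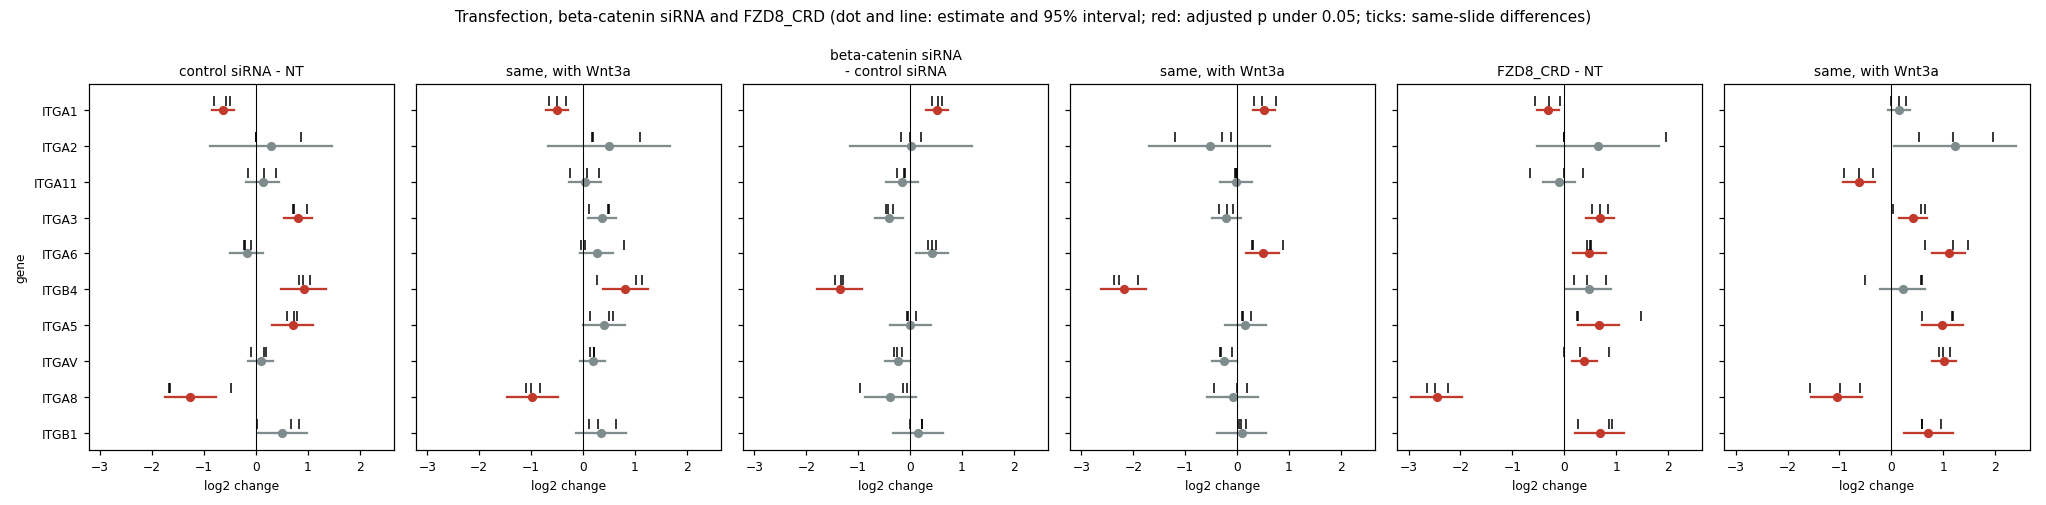
Log2 change of each member with FZD8_CRD, with control siRNA and with β-catenin siRNA, in cells without and with Wnt3a, as estimate and 95% interval (red where adjusted p is under 0.05) with the 3 differences within a slide as ticks. ITGB4 lies at −1.36 and −2.19 for β-catenin siRNA, and ITGAV, at 0.39 and 1.01 for FZD8_CRD, is 0.00 with a reversed sign in the first of these when scaled to the spike-in probes, or 0.47 relative to the median of all genes. The 0.47 is the change of the fit less that median, which a factor per array leaves as it was.

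Genes with a symbol whose 8 condition means followed a member most closely were named for the members whose means spanned more than 1, by Pearson's r over the 8 means, with r over the arrays beside it as a description. For ITGB4 these were PINLYP (0.986, and 0.757 over 24 arrays), FHOD3 (0.983, 0.911) and STXBP6 (0.981, 0.962). ITGA5 was followed by the collagen chain COL4A1 (0.988, 0.965), PTN (0.982, 0.852) and its own partner ITGB1 (0.982, 0.865). ITGB1 in turn was followed by GNPTAB (0.988, 0.776), ELK3 (0.988, 0.921) and COL4A1 (0.988, 0.906). For ITGAV they were MYL7 (0.990, 0.962), PDPN (0.988, 0.971) and SELENOW (0.987, 0.926). ITGA6 had SYPL1 (0.971, 0.880), AGAP1 (0.970, 0.799) and the laminin receptor DAG1 (0.968, 0.946). ITGA8, dim as it was, had BCKDK (0.990, 0.804), OCA2 (0.987, 0.860) and FRK (0.985, 0.879). For ITGA2, not well above background on most arrays, ARPC4, IL11 and MYL6 came first. Their r over the arrays was 0.635, 0.607 and 0.589, the last over 23 arrays. ITGA2 had its highest mean with FZD8_CRD plus Wnt3a, the group through which it entered the test, so no pattern is read from it. The points share slides and treatments, so no p is given. Each gene was picked as closest among 15997 tested genes with a symbol, over only 8 means, so a high r follows in part from the search.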

How the data were processed

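Per the file headers, the authors' Agilent Feature Extraction files hold a background-subtracted intensity for each of 62976 spots, with flags for background, saturation and outlier spots. The submitters' notes and the headers name different versions of that software. The deposited value table holds log2 values that the authors scaled to the 75th percentile and centred on each probe, and it was used as an alternative only. From the intensity, spots flagged as outliers were left out, 986 probes spotted more than once were averaged, arrays were divided by their 75th percentile, weaker signals than the detection limit got a floor value of −6.13 log2 (1.43% of the percentile), and a probe was kept where all 3 arrays of some condition had it well above background (31061, for 24643 genes). The probe with the highest mean stands for its gene. A fold written as at least sets the brighter group's mean against that of a group not well above background, taken on each array at the highest of the floor, the lowest signal well above background and the probe's own. Limma 3.58.1 in R 4.3.3 fitted the 8 conditions with a trended variance, two-sided, with Benjamini-Hochberg adjustment. Pairing by replicate number was checked over 84 pairs of arrays, of which 82 correlated above 0.1 once condition means were removed.

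Named were all 10 members, CTNNB1, up to 5 called genes by absolute change from each list and comparison, and the 3 genes nearest in pattern to each member with a span over 1. The lists were other integrin subunits, collagen ligands, laminin and basement membrane ligands, RGD and fibronectin-type ligands, adhesion adaptors and kinases, hemidesmosome partners, other matrix receptors, and markers of hepatocytes, biliary or progenitor cells, mesenchymal or stellate cells, endothelium and leukocytes. Members and lists were chosen with earlier results of these data known. Alternatives tried were quantile normalization, normexp background with an offset of 50 on the median signal, the deposited log2 values, spike-in scaling, no filter, a filter on all 24 arrays, a floor of 1 intensity unit, the mean of a gene's probes, each probe separately, outlier spots kept, the slide as a block, a fit of only the conditions compared, no variance trend, the study's thresholds (unadjusted p under 0.01 and a fold change above 1.5 or below 0.7), and each array or slide left out.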

Additional observations from a re-analysis of the deposited data

How the results depend on the processing

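The 38 called changes of members kept their sign in every alternative tried except ITGAV with FZD8_CRD in untransfected cells, which was −0.0012431 (adjusted p 0.997) when arrays were scaled to the spike-in probes. All 38 stayed called with the slide as a block, with outlier spots kept, with the mean of a gene's probes, and with each probe separately where 1 called probe of a gene was enough. The dimmer ITGA6 probe on its own was not called in 2 of the 4 comparisons that called ITGA6. Quantile normalization, normexp background, the deposited values and no filter each kept 33, a floor of 1 intensity unit kept 34, no variance trend 36, the study's thresholds 28, a fit of only the conditions compared 20 and spike-in scaling 11. A filter on all 24 arrays removed ITGA8 and ITGA2 and kept the other 32. With 1 array left out, 178 of 228 calls stayed, and with 1 slide left out, 58 of 114. Counts of members called moved by more than 1.5 times as follows. Each count is followed by the share of all genes called in the same fit. With spike-in scaling they were 1, 0 and 0 (1.22%, 0.219% and 0.986%) for Wnt3a in untransfected, control siRNA and FZD8_CRD cells, 2 and 0 (6.19% and 0.974%) for control siRNA without and with Wnt3a, 1 and 1 (0.743% and 2.65%) for β-catenin siRNA and 2 and 4 (29.7% and 9.54%) for FZD8_CRD. For Wnt3a in untransfected cells the count was 3 with no filter (2.06%) and 3 with no variance trend (4.46%). With only the conditions compared it was 0 there (0.00812%), 0 for Wnt3a with FZD8_CRD (0%), 0 for control siRNA with Wnt3a (0.00406%) and 5 for β-catenin siRNA without Wnt3a (17.5%). For Wnt3a after control siRNA it was 1 with quantile normalization (1.98%), normexp (1.49%), the deposited values (2.41%), the filter on all arrays (2.35%) and the floor of 1 (2.01%). The slide as a block gave 4 for β-catenin siRNA without Wnt3a, beside 16.6% of all genes, and 1 for the difference in response with FZD8_CRD, beside 0.605%. The study's thresholds gave 1 for Wnt3a after β-catenin siRNA (1.27%), 1 and 1 for β-catenin siRNA without and with Wnt3a (5.66% and 6.46%), 4 for FZD8_CRD without Wnt3a (22.4%) and 3 for the difference in response with FZD8_CRD (2.97%). The causes of these moves were not tested. With an array or a slide left out, counts ranged over 0 to 7, 0 to 2, 0 to 0 and 0 to 6 for Wnt3a in untransfected, control siRNA, β-catenin siRNA and FZD8_CRD cells, 0 to 6 and 0 to 5 for control siRNA, 1 to 2 and 1 to 3 for β-catenin siRNA, 4 to 7 and 4 to 8 for FZD8_CRD, each without and with Wnt3a, and 0 to 0 and 0 to 6 for the differences in response after β-catenin siRNA and with FZD8_CRD. With slides 1, 2 and 3 left out in turn the count was 0, 0 and 7 beside 0.110%, 0.0243% and 25.7% for Wnt3a in untransfected cells, 0, 1 and 1 beside 0.0162%, 0.0487% and 2.33% after control siRNA and 0, 0 and 6 beside 0.0122%, 0% and 21.6% with FZD8_CRD, 0, 3 and 6 beside 0.954%, 8.93% and 27.9% for control siRNA without Wnt3a and 0, 1 and 0 beside 0.00406%, 3.58% and 5.08% with it, 1, 1 and 2 beside 2.04%, 1.92% and 9.65% for β-catenin siRNA without Wnt3a and 2, 1 and 3 beside 3.73%, 2.39% and 10.74% with it, 4, 5 and 5 beside 25.2%, 25.7% and 45.6% for FZD8_CRD without Wnt3a and 4, 6 and 7 beside 16.7%, 25.1% and 41.1% with it, and 0, 0 and 6 beside 0%, 0% and 12.1% for the difference in response with FZD8_CRD. For Wnt3a after β-catenin siRNA and its difference in response limma called 0 in each. Signal over background limits ITGA2 and ITGA8, for which conditions at the floor give bounds only.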

Other observations

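Of 16 integrin subunits outside the 10 members, 14 were bright enough to test, and the counts called with Wnt3a were 2, 1, 0 and 3 in untransfected, control siRNA, β-catenin siRNA and FZD8_CRD cells, beside 5.6%, 2.11%, 0.0406% and 8.29% of all genes, where limma was used throughout. ITGB5, a partner of ITGAV in a vitronectin receptor, rose with Wnt3a by 0.51 in untransfected cells and 0.48 after control siRNA. ITGAM, of the leukocyte receptor Mac-1, fell (−0.73). With FZD8_CRD, Wnt3a raised ITGB3 by 1.85 and lowered ITGB8 (−1.19) and ITGB2 (−0.46). Control siRNA against no transfection changed 5 of 14 without Wnt3a, among them ITGAX (1.15), ITGA10 (−0.65), a cartilage collagen receptor chain, and ITGB6 (−3.11, well above background on 2 of 3 arrays after control siRNA), and 5 of 14 with Wnt3a, beside 22.3% and 9.04% of all genes. β-catenin siRNA against control siRNA changed 5 of 14 without Wnt3a and 4 with it, beside 10.6% and 10.6%. ITGB2 rose by 1.04 and 1.02, ITGA10 by 0.61 and 0.53, and ITGAX fell without Wnt3a (−2.38). FZD8_CRD changed 9 of 14 without Wnt3a and 7 with it, beside 41.9% and 37.2%. ITGB3 rose by 2.06 and 2.45, and ITGA10 fell, at −1.26 and −1.43.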
